A study of Mus musculus with 8 samples.

Results

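The genes that carry proteins into mitochondria and fold them there were read in RNA from inguinal white adipose tissue (ING WAT), the subcutaneous fat pad of the groin, of C57BL/6j mice at postnatal day 21 (PN21) and postnatal day 98 (PN98). The 42 members were chosen by name among the 37204 genes of the table. They were every gene whose symbol starts with *Tomm* or *Timm* and a number, and 18 further genes. These 18 are genes for import motors, chaperones, peptidases and proteases, for the sorting and assembly machinery, and for the disulfide relay of the intermembrane space. Each age had 4 mice, numbered m1, m49, m138 and m145 at PN21 and m35, m106, m114 and m125 at PN98, and values below follow that order. All 8 carried the same strain background and no transgene or agent is named in the labels, which give age, strain and tissue. The study weaned its mice around PN21, and it names neither the sex of the sequenced PN21 mice nor the diet of the sequenced PN98 mice. Values are FPKM, fragments per kilobase of transcript relative to the mapped fragments of the library, summed over the transcripts of a gene, so that levels can be compared between genes per length. They were compared with limma on log2(FPKM + 1), which understates the change of low genes, and p-values were adjusted over all 15792 genes with a mean of at least 1 FPKM. A log2 fold change is PN98 minus PN21, so a negative value means a lower level at PN98.

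Nearly all mitochondrial proteins are made in the cytosol and must cross one or both mitochondrial membranes. The TOM complex is the common gate of the outer membrane, the TIM23 complex with its Hsp70 motor takes proteins with a presequence into the matrix, the TIM22 complex inserts carriers into the inner membrane, and small TIM chaperones and the sorting and assembly machinery (SAM) serve membrane proteins on the way. In the matrix a peptidase removes the presequence, chaperonins fold the protein, and proteases remove what is not folded. Thermogenic adipocytes are rich in mitochondria, and lipid-storing white adipocytes have fewer.

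Of the 42 members, 40 reached a mean of 1 FPKM and were tested, and most stood lower at PN98 by a small amount. The deposited values were lower at PN98 for 36 members and higher for 4, at a median of -0.32 on the log2 scale (quartiles -0.65 and -0.18) beside -0.21 over all genes tested, of which 67.1% were lower. Only 2 members passed an adjusted p of 0.05, *Timm8a1*, a small TIM chaperone, and *Timm17b*, a subunit of the TIM23 channel, and both were lower. Among all genes 878 of 15792 passed in either direction (5.56%) and 491 passed as lower (3.11%), so the 2 of 40 members stood near the background. In 8 members (*Timm8a1*, *Timm17b*, *Tomm40*, *Tomm22*, *Tomm5*, *Timm44*, *Grpel2* and *Hspd1*) all 4 PN98 mice were below all 4 PN21 mice, which was the case for 10.1% of all genes, and in no member were all PN98 mice above, which was the case for 6.12%. An unadjusted p under 0.05 was reached by 12 of the 40 members and by 27.7% of all genes, so this count too stood near the background. The direction of the smaller changes depended on how the libraries were scaled. The mitochondrial genome supplied between 42.5% and 60.3% of all FPKM in a mouse. Scaling each library to its summed FPKM outside the mitochondrial genome moved the median of all genes from -0.21 to 0.01, and the median of the members to -0.06, with 23 members lower and none past the threshold. Scaling by the median of ratios gave -0.02 for all genes and -0.09 for the members, with 24 lower and none past the threshold. Of all genes that passed, 284 of 852 were lower under the former and 461 of 1232 under the latter. Unadjusted p-values under 0.05 in limma were left for 4 of the 40 members under the former, against 22.6% of all genes, and for 2 under the latter, against 25.7%. Below, a change is therefore read beside the median of all genes.

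The promoters of 4 members on which the comparison turns are shown, *Timm8a1* and *Timm17b* because they passed the test, *Tomm40* because it had the largest difference of the TOM complex, and *Hspe1* because it had the largest of the matrix chaperones and starts beside *Hspd1* on the opposite strand. Each runs from 250 bases before to 50 bases after the gene's start in RefSeq for GRCm38.p6, 5′ to 3′ on the gene's strand, at chrX:134541621-134541920 (minus strand) for *Timm8a1*, chrX:7899086-7899385 (plus) for *Timm17b*, chr7:19715380-19715679 (minus) for *Tomm40* and chr1:55087898-55088197 (plus) for *Hspe1*. Capitals mark matches on either strand to the letters of an E-box (CACGTG, *Timm8a1*), of a CCAAT box (CCAAT, *Timm17b* and *Tomm40*), and of the overlapping ETS core (CCGGAAG) and heat shock element core (GAANNTTC) in *Hspe1*.
Timm8a1: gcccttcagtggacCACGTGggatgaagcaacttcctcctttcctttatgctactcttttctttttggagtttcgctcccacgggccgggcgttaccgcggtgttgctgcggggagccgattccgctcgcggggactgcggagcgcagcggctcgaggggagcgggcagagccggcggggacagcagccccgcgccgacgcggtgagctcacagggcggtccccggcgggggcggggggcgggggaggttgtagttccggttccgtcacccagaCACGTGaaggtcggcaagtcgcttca
Timm17b: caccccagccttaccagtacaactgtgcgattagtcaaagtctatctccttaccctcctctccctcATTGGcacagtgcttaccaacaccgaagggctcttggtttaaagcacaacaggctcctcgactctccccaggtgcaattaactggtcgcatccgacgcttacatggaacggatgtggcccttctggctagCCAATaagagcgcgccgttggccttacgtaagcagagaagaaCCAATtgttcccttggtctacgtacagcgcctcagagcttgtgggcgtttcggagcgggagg
Tomm40: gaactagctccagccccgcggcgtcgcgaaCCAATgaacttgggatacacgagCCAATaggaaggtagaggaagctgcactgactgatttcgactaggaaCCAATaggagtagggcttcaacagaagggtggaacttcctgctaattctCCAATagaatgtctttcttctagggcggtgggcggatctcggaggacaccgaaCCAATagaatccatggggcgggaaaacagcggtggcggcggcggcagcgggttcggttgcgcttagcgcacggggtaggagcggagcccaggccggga
Hspe1: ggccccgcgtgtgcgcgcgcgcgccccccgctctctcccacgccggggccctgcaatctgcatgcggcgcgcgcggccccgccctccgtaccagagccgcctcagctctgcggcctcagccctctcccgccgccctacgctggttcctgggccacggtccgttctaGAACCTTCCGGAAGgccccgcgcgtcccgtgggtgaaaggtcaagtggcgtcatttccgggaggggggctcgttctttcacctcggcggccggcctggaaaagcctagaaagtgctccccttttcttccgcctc

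Promoters of 37 of the 42 members were searched. The 3 members on chromosome 18, *Grpel2*, *Hspa9* and *Timm21*, were left out of the search. The remaining members not searched had no promoter listed. No chromosome was left out of the 32851 promoters set beside the members. The ETS core, the letters read by ETS-family factors such as GABPA, stood in 16 of these 37 (43.2%) and in 8.86% of all 32851 promoters. The core TGCGCA of the nuclear respiratory factor NRF1 stood in 8 (21.6%) and in 7.76% of all, the E-box in 7 (18.9%) and in 7.15% of all, and the CCAAT box in 12 (32.4%) and in 37.4% of all. The heat shock element core stood in 3 members, *Hspd1*, *Hspe1* and *Timm9* (8.11%), and in 7.86% of all promoters. In *Hspe1* the 2 ETS matches lay on opposite strands and overlapped each other and the heat shock match in part, in *Timm8a1* there were 2 E-box matches, and *Timm17b* and *Tomm40* had 3 and 5 CCAAT matches. A member was counted once if any promoter listed for it matched, while the share of all was taken per listed promoter. The percentages are therefore not of the same unit. A match is a string of letters and not a bound site.

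**Figure D1:**
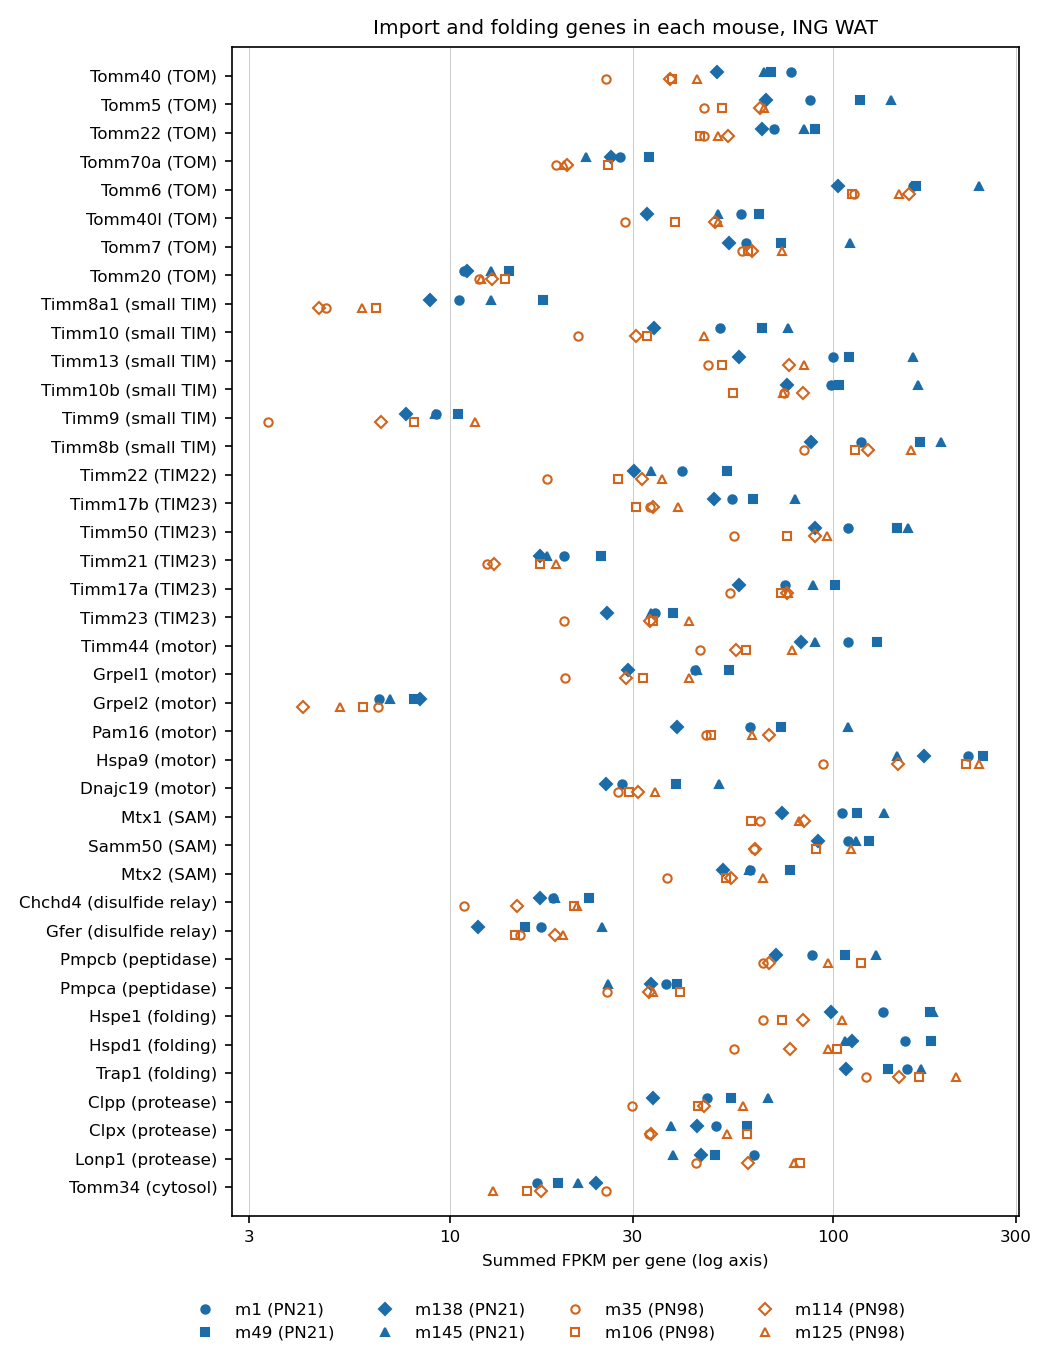
Summed FPKM (log axis) of the 40 tested members in each of the 8 mice, with PN21 mice as filled blue and PN98 mice as open orange symbols. Levels ran from about 3.36 FPKM for *Timm9* in m35 to 246 FPKM for *Hspa9* in m49, and m35 is the leftmost symbol in 25 of the 40 rows.

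The small TIM chaperones ferry hydrophobic proteins across the intermembrane space, and all 6 tested were lower at PN98, with a median of -0.62 on the log2 scale, and 1 passed the threshold. *Timm8a1* (ENSMUSG00000048007, chrX:134537256-134541865 in GRCm38), partner of *Timm13* in one of these chaperones, measured 10.6, 17.5, 8.92 and 12.8 FPKM in the PN21 mice and 4.75, 6.42, 4.57 and 5.90 FPKM in the PN98 mice. All PN98 mice were below all PN21 mice, and the mean was 12.4 ± 3.72 at PN21 and 5.41 ± 0.894 FPKM at PN98 (SD, n = 4; log2 fold change -1.04, standard error 0.22, limma adjusted p = 0.0349). With both other scalings its log2 fold change was -0.81 and -0.83 and its adjusted p rose to 0.0700 and 0.0967. Leaving out 1 mouse gave an adjusted p of 0.0286 without m35, 0.0482 without m138 and 0.0621 to 0.102 without any other. *Timm8b*, its paralog, had more than 10 times the level and measured 118, 168, 87.7 and 191 FPKM in the PN21 mice and 83.7, 113.996, 123 and 159 FPKM in the PN98 mice. These groups overlapped, and its log2 fold change of -0.21 was that of the median gene (adjusted p = 0.659). The other members of the group, *Timm10* (-0.76), *Timm13* (-0.67), *Timm10b* (-0.58) and *Timm9* (-0.36), did not pass the test (adjusted p 0.157 to 0.458). *Timm8a2*, a further copy, was at 0 to 0.370 FPKM and was not tested.

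The TIM23 complex is the channel for presequence proteins, and all 5 of its members were lower in the deposited values, with a median of -0.35 and 1 past the threshold. *Timm17b* (ENSMUSG00000031158, chrX:7899357-7908351), one of 2 forms of the channel subunit Tim17, measured 54.5, 62.0, 48.8 and 79.8 FPKM in the PN21 mice and 33.3, 30.7, 33.9 and 39.5 FPKM in the PN98 mice. The highest PN98 mouse was below the lowest PN21 mouse, and the mean went from 61.3 ± 13.5 to 34.3 ± 3.70 FPKM (SD, n = 4; log2 fold change -0.80, standard error 0.19, limma adjusted p = 0.0471). Its log2 fold change was -0.54 and -0.57 with the other scalings (adjusted p = 0.114 and 0.171), and of the 8 fits without 1 mouse only that without m35 kept an adjusted p under the threshold (0.0332, against 0.0609 to 0.135). Of the 9 transcripts that name *Timm17b*, 3 were assigned to it. Of its 3 transcripts 2 are listed with the neighbouring *Pqbp1* or *Gm10491* as well, and reads of overlapping genes may not have been told apart. On log2(FPKM), ENSMUST00000150541 (-0.93) and ENSMUST00000146406 (-0.81) were lower at PN98. ENSMUST00000033498 was higher (0.38), at a mean of 1.77 FPKM at PN21 and 2.25 FPKM at PN98. Their adjusted p in limma was 0.101, 0.104 and 0.361. *Timm17a*, the other form of Tim17, differed by -0.18 (adjusted p = 0.596), and with both other scalings its difference was above 0. *Timm50* (receptor of the complex, -0.65), *Timm21* (-0.35) and *Timm23* (the other channel subunit, -0.06) did not pass the test (adjusted p 0.145 to 0.891), and *Timm23* was also above 0 with both other scalings. *Timm8a1* and *Timm17b* both lie on the X chromosome. The Y-linked *Ddx3y* stood at 18.1 to 25.9 FPKM in all 8 mice, so Y-linked RNA was present in every mouse of both ages. *Xist*, the RNA of the silenced X, was low in all mice but apart between the ages. It stood at 0.832, 0.362, 0.490 and 0.247 FPKM at PN21 and at 0.00190, 0.00704, 0.00220 and 0 FPKM at PN98. Its relation to the 2 X-linked members was not tested.

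*Timm22*, the channel of the carrier translocase, measured 40.3, 52.9, 30.2 and 33.6 FPKM in the PN21 mice and 17.9, 27.5, 31.8 and 35.8 FPKM in the PN98 mice. At PN98 m114 and m125 lay within the PN21 range and m106 and m35 below it (log2 fold change -0.47, standard error 0.26, limma adjusted p = 0.262).

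In the TOM complex 7 of 8 tested members were lower at PN98 and none passed the threshold (median -0.32, with an unadjusted p under 0.05 in 3, which 27.7% of all genes reached). *Tomm40*, the pore itself, measured 77.9, 68.9, 49.7 and 66.1 FPKM in the PN21 mice and 25.6, 37.9, 37.6 and 44.1 FPKM in the PN98 mice. The groups did not overlap, m35 was the lowest and m1 the highest, and the difference missed the threshold (log2 fold change -0.84, standard error 0.22, limma adjusted p = 0.0596). *Tomm40l*, a second pore gene, measured 57.4, 64.0, 32.7 and 50.1 FPKM in the PN21 mice and 28.7, 38.8, 49.1 and 50.2 FPKM in the PN98 mice. Its ages overlapped, with m138 near the lowest PN98 mouse (log2 fold change -0.28, standard error 0.26, limma adjusted p = 0.5005). The groups were also apart for *Tomm22*, the central receptor, at 77.2 ± 11.5 FPKM at PN21 and 48.7 ± 3.80 FPKM at PN98 (mean ± SD, n = 4). Its log2 fold change was -0.65 and its limma adjusted p was 0.0525. *Tomm5*, a small subunit, stood at 103 ± 33.0 FPKM at PN21 and 57.1 ± 9.82 FPKM at PN98 (mean ± SD, n = 4). Its log2 fold change was -0.80 and its limma adjusted p was 0.101. The receptor *Tomm70a* (-0.36) and the small subunits *Tomm6* (-0.28) and *Tomm7* (-0.18) overlapped between the ages, and the presequence receptor *Tomm20* differed by 0.05. *Tomm20l* was at 0 in 7 mice. *Tomm34*, a cytosolic co-chaperone despite its name, measured 16.9, 19.2, 24.2 and 21.6 FPKM in the PN21 mice and 25.6, 15.9, 17.3 and 13.0 FPKM in the PN98 mice. It was the only member whose highest value was in m35 (log2 fold change -0.21, standard error 0.22, limma adjusted p = 0.552).

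The motor that pulls presequence proteins into the matrix is built on mortalin, the Hsp70 of the matrix, and all 6 of its members were lower in the deposited values (median -0.33), with none past the threshold. *Timm44*, which docks the Hsp70 at the channel, measured 109, 130.0, 82.5 and 89.6 FPKM in the PN21 mice and 44.9, 59.1, 55.7 and 78.3 FPKM in the PN98 mice. All PN98 mice were below all PN21 mice, with m125 only just so (log2 fold change -0.79, standard error 0.22, limma adjusted p = 0.0787). *Grpel2*, one of 2 nucleotide exchange factors, was also apart at 7.50 ± 0.877 FPKM at PN21 and 5.44 ± 1.03 FPKM at PN98 (mean ± SD, n = 4). Its log2 fold change was -0.41 and its limma adjusted p was 0.166. *Hspa9*, which encodes mortalin and was the highest member at 187 FPKM over the 8 mice, overlapped between the ages (-0.23), as did *Grpel1* (-0.47), *Pam16* (-0.25) and *Dnajc19* (-0.18), of which the last 2 encode regulators of the Hsp70. The differences of *Hspa9* and *Dnajc19* were above 0 with both other scalings and that of *Pam16* with the first.

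The 3 SAM genes were lower with a median of -0.46, and none passed. *Mtx1*, which encodes metaxin, measured 105, 116, 73.7 and 135 FPKM in the PN21 mice and 64.3, 61.0, 84.0 and 81.5 FPKM in the PN98 mice. Only m138 among the PN21 mice reached into the PN98 range (log2 fold change -0.54, standard error 0.22, limma adjusted p = 0.163). *Samm50*, the barrel protein of the machinery, differed by -0.46 and *Mtx2* by -0.26 (adjusted p = 0.214 and 0.432). In the disulfide relay, which oxidises small proteins of the intermembrane space, *Chchd4* measured 18.7, 23.0, 17.2 and 18.9 FPKM in the PN21 mice and 10.9, 21.1, 15.0 and 21.4 FPKM in the PN98 mice. Mice m35 and m114 lay below the PN21 range and the other PN98 mice within it (log2 fold change -0.21, standard error 0.23, limma adjusted p = 0.554), and its oxidase *Gfer* differed by 0.01.

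The matrix folding genes had the largest median difference of the groups (-0.74) but hold only 3 tested genes, and none passed the threshold. Of these 3, 2 had an unadjusted p under 0.05, beside 27.7% of all genes. *Hspe1*, the lid of the chaperonin cage, measured 135, 179, 98.7 and 182 FPKM in the PN21 mice and 65.5, 73.6, 83.7 and 105.7 FPKM in the PN98 mice. m138 at PN21 lay below m125 at PN98 and all others were apart (log2 fold change -0.83, standard error 0.25, limma adjusted p = 0.0871). *Hspd1*, the cage itself, did not overlap at 138.3 ± 34.9 FPKM at PN21 and 82.8 ± 21.3 FPKM at PN98 (mean ± SD, n = 4). Its log2 fold change was -0.74 and its limma adjusted p was 0.124. The transcripts of this gene pair are listed under both symbols, since the genes overlap at their start. *Trap1*, the Hsp90 of mitochondria, was at 143 ± 26.3 FPKM at PN21 and 162 ± 36.7 at PN98 (0.17, adjusted p = 0.622).

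The presequence peptidase and the proteases stood at or above the median of all genes. *Pmpcb*, the catalytic subunit of the peptidase, measured 88.1, 107, 71.1 and 129 FPKM in the PN21 mice and 65.8, 118, 68.0 and 97.2 FPKM in the PN98 mice. Its ages overlapped (log2 fold change -0.19, standard error 0.26, limma adjusted p = 0.656), and *Pmpca* differed by -0.02. *Lonp1*, the protease that degrades oxidised matrix proteins, was the highest of the members by fold change and measured 62.2, 49.3, 45.1 and 38.1 FPKM in the PN21 mice and 44.0, 81.7, 60.2 and 79.1 FPKM in the PN98 mice. Mice m106 and m125 at PN98 were above all PN21 mice, and m114 and m35 were within their range (log2 fold change 0.42, standard error 0.24, limma adjusted p = 0.287). With the other scalings it was 0.67 and 0.64 (adjusted p = 0.250 and 0.235). *Clpp* and *Clpx*, the protease and the unfoldase of the other matrix protease, differed by -0.17 and -0.12 and were above 0 with both other scalings.

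**Figure D2:**
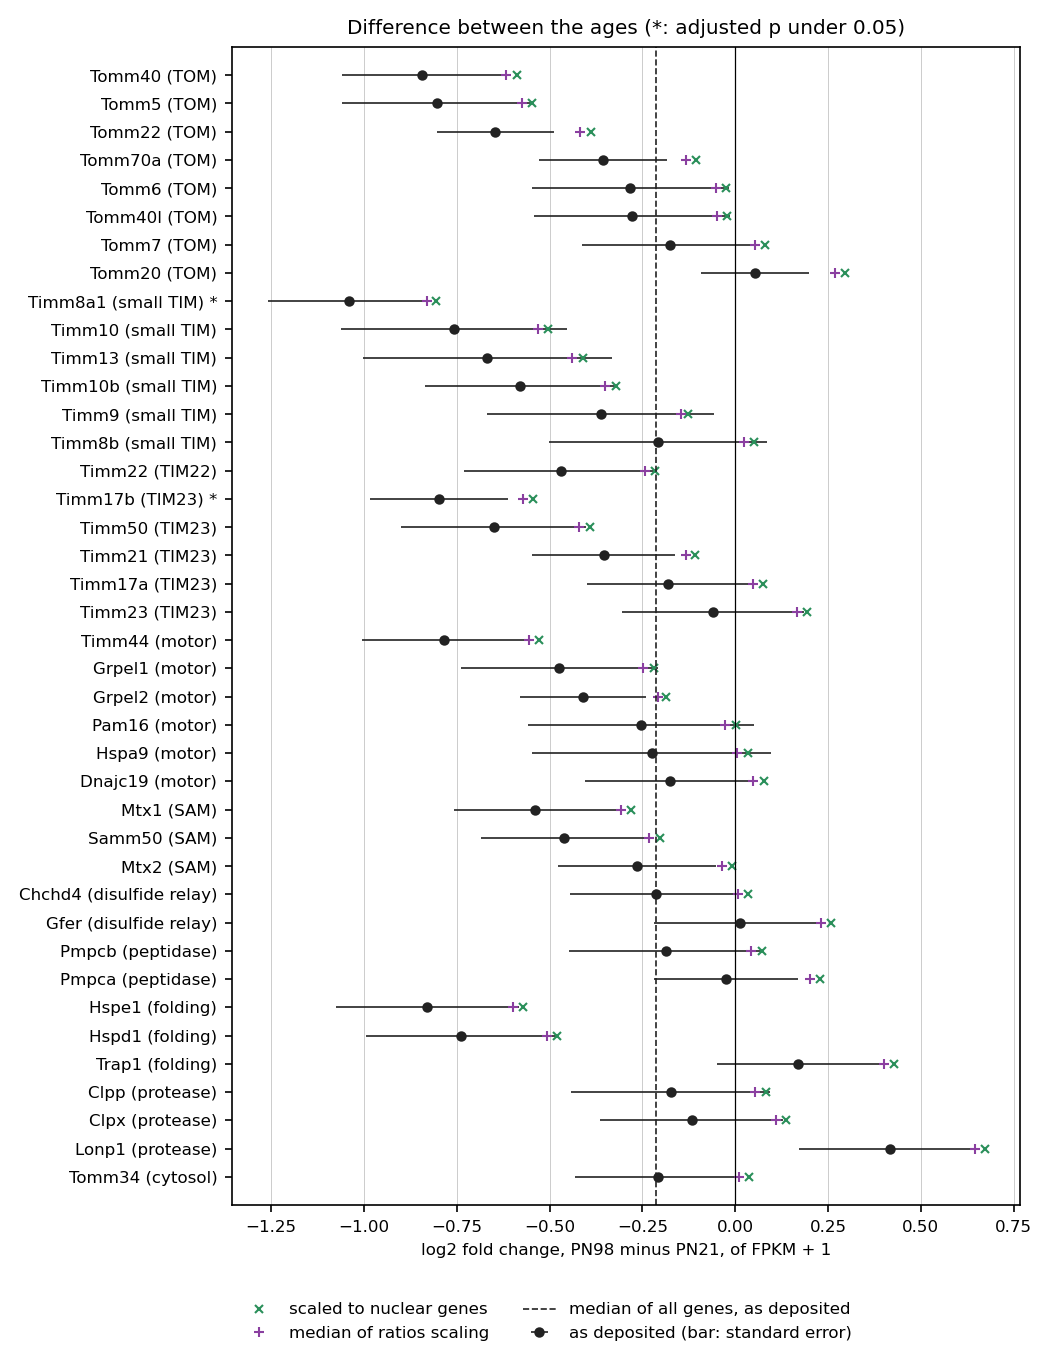
Log2 fold change of FPKM + 1, PN98 minus PN21 (n = 4 mice each), of the 40 tested members by role; points are the deposited values with standard errors as bars, crosses and plus signs the other scalings, and the dashed line the median of all genes (-0.21). Asterisks mark *Timm8a1* and *Timm17b*, and *Lonp1* lies farthest to the right at 0.42.

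A ratio of 2 genes within a mouse does not depend on the scaling of its library, so 10 pairs of paralogs or direct partners were compared by an exact permutation test (two-sided, all 70 ways to divide 8 mice into 4 and 4), whose smallest p is 0.0286. None passed after adjustment over the 10 pairs. A pair at this smallest p could pass only if most of the other pairs were separated as well. The adjusted p of a separated pair was thus set by the number of splits, and the lack of a pass is no result about the pairs. The log2 ratio of *Timm8b* to *Timm8a1* was 3.49, 3.26, 3.30 and 3.90 in the PN21 mice and 4.14, 4.15, 4.75 and 4.76 in the PN98 mice. The groups did not overlap, and the geometric mean ratio was 11.2 at PN21 and 21.8 at PN98 (difference 0.96, exact permutation p = 0.0286, adjusted p = 0.143). For *Tomm40l* to *Tomm40* it was -0.44, -0.11, -0.60 and -0.40 in the PN21 mice and 0.16, 0.03, 0.39 and 0.19 in the PN98 mice. In summed FPKM *Tomm40* was the higher of the pair in every PN21 mouse and *Tomm40l* in every PN98 mouse (difference 0.58, exact permutation p = 0.0286, adjusted p = 0.143). This pattern depended on the sum over transcripts. With the leading transcript of each gene, which held a mean of 37.9% of the level of *Tomm40l* and 88.4% of that of *Tomm40*, the groups overlapped and *Tomm40* was the higher in all 8 mice (difference 0.17, exact permutation p = 0.543, adjusted p = 0.776). The ratio of *Timm17a* to *Timm17b* had a geometric mean of 1.30 at PN21 and 2.02 at PN98, with m49 at PN21 just above m35 at PN98 (difference 0.63, exact permutation p = 0.0571, adjusted p = 0.190). For the other 7 pairs the difference lay between -0.35 (*Timm10* to *Timm9*) and 0.27 (*Mtx2* to *Mtx1*), with adjusted p from 0.571 to 0.971 by the same exact permutation test. *Hspd1* to *Hspe1* differed by 0.09 and *Grpel2* to *Grpel1* by 0.01. With leading transcripts *Mtx2* to *Mtx1* differed by 0.63 and *Pmpca* to *Pmpcb* by 0.90, and the lowest adjusted p of the 10 pairs was 0.286 by the same exact permutation test.

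**Figure D3:**
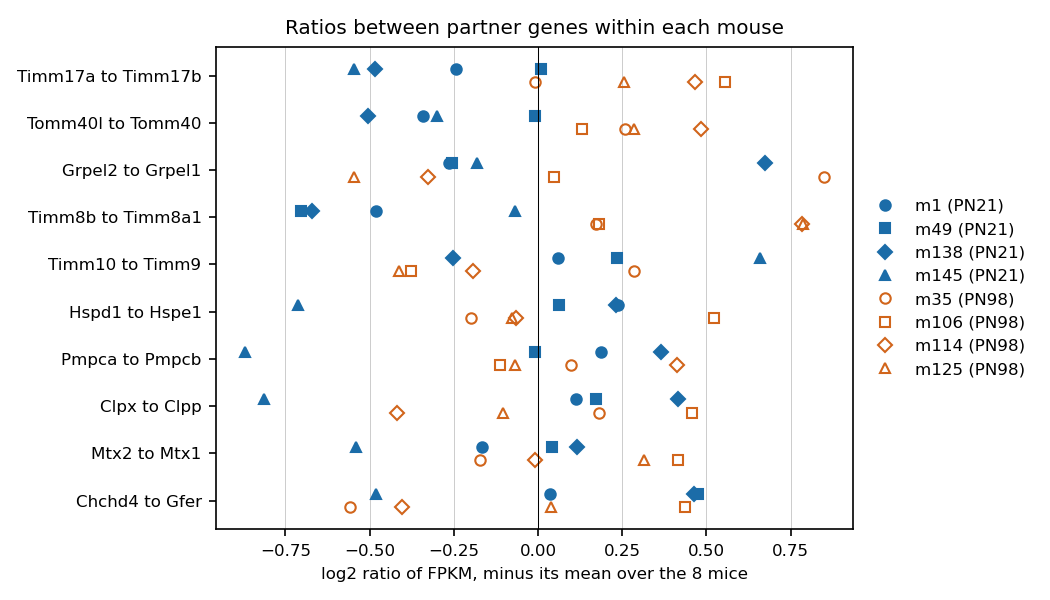
Log2 ratio of summed FPKM of 10 partner pairs in each mouse, minus the mean of the pair over the 8 mice (filled, PN21; open, PN98). The PN21 and PN98 symbols are apart for *Tomm40l* to *Tomm40* and *Timm8b* to *Timm8a1* and overlap for the other 8 pairs.

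The mice differed in the level of the members as a whole. The mean of log2(FPKM + 1) over the 40 members was 5.74, 5.96, 5.41 and 5.92 in the PN21 mice and 5.06, 5.44, 5.40 and 5.64 in the PN98 mice. Mouse m35 was thus the lowest and m138 stood within the PN98 range. Within PN98, m35 was the lowest mouse in 31 of 40 members (77.5%) and in 18.9% of all genes, while it was the highest in 51.4% of all genes. Conversely m125 was the highest PN98 mouse in 25 members (62.5%) and in 14.1% of all genes, and the lowest in 50.9% of all genes. Within PN21, m138 was the lowest in 31 members (77.5%, against 21.1% of all genes). The highest was m49 in 19 members (47.5%, against 17.4% of all genes) and m145 in 17 (42.5%, against 27.9%).

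Markers of adipocytes and of other cells that a fat pad can hold were read beside these levels. The 6 brown adipocyte markers (*Ucp1*, *Cidea*, *Cox7a1*, *Cox8b*, *Elovl3* and *Dio2*) were all detected and summed to 3950, 4015, 3035 and 6457 FPKM at PN21 and 370.0, 2412, 1014 and 4225 FPKM at PN98. In this sum too m35 was the lowest and m125 the highest PN98 mouse, and m138 the lowest PN21 mouse. Single markers differed in part. Among PN98 mice m35 was the lowest in each, but *Elovl3* and *Dio2* were highest in m106. Among PN21 mice m138 was the lowest in *Cox7a1* and *Cox8b* only. Of the 6 brown adipocyte markers 5 were lower at PN98 and none passed the threshold in the limma fit (3 with an unadjusted p under 0.05, beside 27.7% of all genes). The 6 adipocyte markers were detected in every mouse at a summed 12259 to 22458 FPKM at PN21 and 32826 to 43321 FPKM at PN98, with 5 higher and 3 past the threshold. Lymphocyte markers (10 of 10 lower, none past the threshold) summed to 408 to 947 FPKM at PN21 and 13.0 to 841 FPKM at PN98, with m35 the highest PN98 mouse. Skeletal muscle markers (9 of 9 higher, 2 past the threshold) ran from 91.6 to 865 FPKM and from 648 to 4189 FPKM, and proliferation markers (6 of 6 lower, 5 past the threshold) from 65.6 to 110 FPKM and from 7.46 to 28.2 FPKM. Macrophage (6 of 7 lower), endothelial (4 of 4 lower) and epithelial markers (4 of 4 lower, 1 past the threshold) summed to 527 to 857, 142 to 209 and 1.87 to 27.2 FPKM at PN21 and to 243 to 944, 64.4 to 234 and 0.211 to 1.11 FPKM at PN98. Beside these counts, 5.56% of all genes passed the threshold in either direction and 67.1% were lower at PN98. No marker was at 0 in all mice, and the part of these cell types in the values of the members was not tested. In RNA from a whole fat pad, fewer cells of a type and less RNA per cell cannot be told apart.

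**Figure D4:**
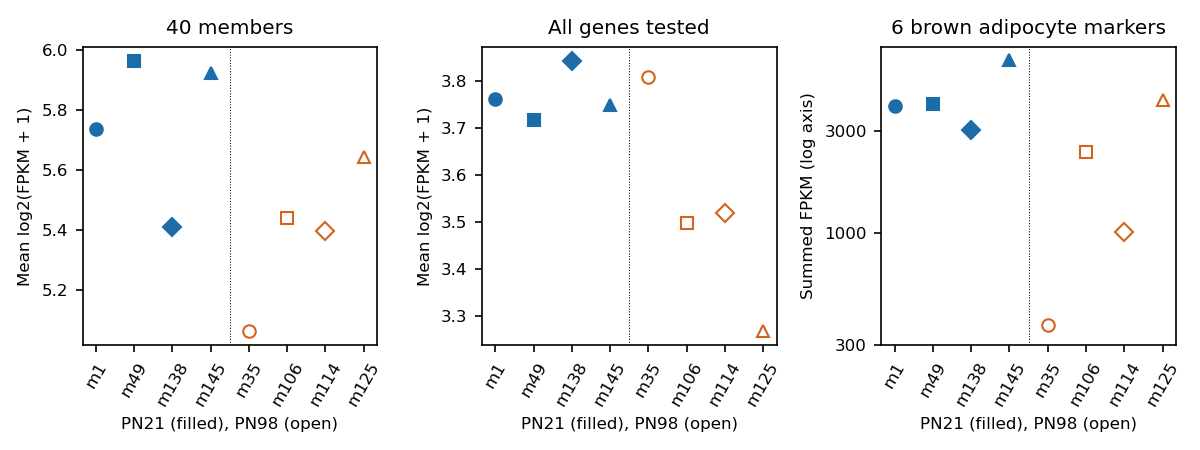
Mean log2(FPKM + 1) of the 40 members (left) and of all 15792 genes tested (middle), and summed FPKM of 6 brown adipocyte markers (right, log axis), in each mouse; vertical axes do not start at 0. Mouse m35 has the lowest value of the members (5.06) and of the markers (370.0 FPKM) but not of all genes.

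Mice m35 and m145 held the lowest and the highest sum of the brown adipocyte markers. In m145 *Cox8b* and *Cox7a1* supplied 3540 and 1725 of its 6457 FPKM, and *Ucp1*, *Cidea*, *Elovl3* and *Dio2* were highest in other mice. The comparison was also made without m35 and m145, a choice made after seeing the data. The median of the members was then -0.19 beside -0.28 over all genes, 29 members were lower, and *Timm17b* alone passed (log2 fold change -0.65, adjusted p = 0.0479), while *Timm8a1* had -0.96 (adjusted p = 0.0612). Over all genes 2588 passed in that fit. Without m35 alone the median was -0.24 beside -0.27 over all genes, and 4 members passed as lower, *Timm8a1*, *Timm17b*, *Tomm22* and *Tomm40*, of 3615 genes in all. Weighting each mouse by its fit (limma's arrayWeights) called 11 members, all lower, while it called 29.6% of all genes.

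Differences between mice of the same age varied with transcript length. Over the 40 members, Spearman's rho between the length of the leading transcript and a mouse's difference from the others of its age was -0.59 in m145 and 0.65 in m138 at PN21, and 0.59 in m106 and -0.54 in m114 at PN98. Over all genes these were -0.32, 0.27, 0.20 and 0.07. Each set of 40 points comes from the same libraries and is a description. In m145 the 17 members with a leading transcript under 1000 bases were higher by a median of 0.56 on the log2 scale and the 23 longer ones by 0.05, and in m138 the short members were at -0.67 and the long ones at -0.34. For the difference between the ages rho was 0.25 in the members and 0.19 in all genes, with medians of -0.36 in short and -0.23 in long members. Its part in the differences between the ages was not tested.

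**Figure D5:**
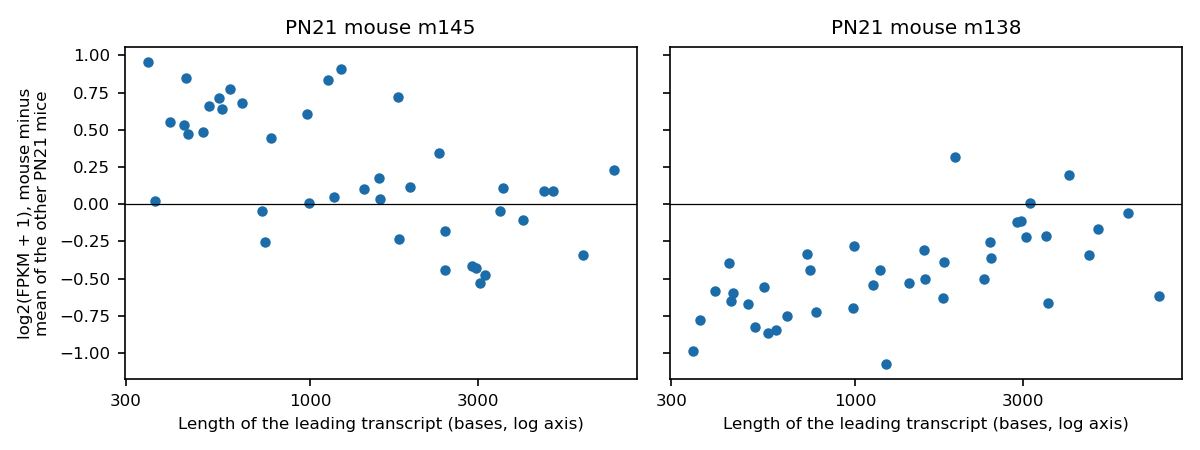
Difference of log2(FPKM + 1) between 1 PN21 mouse and the mean of the other PN21 mice, against the length of the leading transcript (log axis), for the 40 members; left m145, right m138. Short transcripts lie high in m145 (rho -0.59) and low in m138 (rho 0.65).

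The members were also read by transcript, as log2(FPKM) without a pseudocount for transcripts above 0 in all mice and with a mean above 2 FPKM at either age. Of the 144 transcripts assigned to a member 88 were tested, 73 of them lower, and their median was -0.35 beside -0.24 over all transcripts. None passed an adjusted p of 0.05 in limma (the lowest was 0.0683), as 1.36% of all 23154 transcripts did, and 16 had an unadjusted p under 0.05 (18.2%, against 21.8% of all). Of those 16, 15 were lower. The lowest adjusted p was that of *Timm10b* transcript ENSMUST00000106784, which went from 32.3 ± 6.44 to 16.04 ± 2.33 FPKM (SD, n = 4; log2 fold change -1.001, standard error 0.20). The single transcript of *Timm8a1* differed by -1.17 on this scale (adjusted p = 0.0745 in limma). The 1 higher transcript was ENSMUST00000138184 of *Tomm40l*, which measured 2.87, 4.75, 1.90 and 2.36 FPKM at PN21 and 7.11, 3.42, 13.2 and 15.3 FPKM at PN98. Its groups overlapped through m106 alone (log2 fold change 1.58, standard error 0.53, adjusted p = 0.166 in limma), while ENSMUST00000111327 of the same gene was lower (-1.07, adjusted p = 0.113). In 14 members a single transcript held the whole level, and 79 of the 144 transcripts are listed under a neighbouring gene too.

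Beside the members, 34 further genes of mitochondrial protein biogenesis were listed by function, of which 32 were in the table and 31 tested. Of these, 25 were lower, beside 67.1% of all genes, with a median of -0.27 beside -0.21. The threshold was passed by 3, all lower, and by 3.11% of all genes as lower. In 6 of the 31 all PN98 mice were below all PN21 mice, beside 10.1% of all genes. In 1 all were above, beside 6.12%. *Ppif*, the cyclophilin of the matrix, measured 26.8, 34.6, 24.4 and 26.8 FPKM in the PN21 mice and 7.85, 12.3, 7.88 and 14.8 FPKM in the PN98 mice. Every PN98 mouse was below every PN21 mouse (log2 fold change -1.35, standard error 0.23, limma adjusted p = 0.0188). *Bcs1l*, the chaperone that assembles complex III, was likewise apart (log2 fold change -0.85, standard error 0.16, limma adjusted p = 0.0251), as was *Oxa1l*, the insertase of the inner membrane (log2 fold change -0.70, standard error 0.17, limma adjusted p = 0.0487). *Phb2*, which encodes a prohibitin of the inner membrane, had the largest difference of this list, -1.64 (adjusted p = 0.0568). With both other scalings 16 of the 31 were lower, and 1 and 0 of them passed in limma (6 at an unadjusted p under 0.05 in each, beside 22.6% and 25.7% of all genes). Of 13 regulators of mitochondrial biogenesis and stress, all were lower in the deposited values, beside 67.1% of all genes. Their median was -0.48, beside -0.21 over all genes. None passed in the limma fit, with 4 at an unadjusted p under 0.05 (27.7% of all genes). The largest differences were those of *Myc* (-1.41, adjusted p = 0.0554), of the coactivator *Ppargc1b* (-1.17, adjusted p = 0.0814) and of its receptor partner *Esrra* (-1.07, adjusted p = 0.152). With each of the other scalings 10 of the 13 regulators were lower. Their medians were -0.23 and -0.26, beside 0.01 and -0.02 over all genes. In limma 0 and 1 of them passed, beside 852 and 1232 of all genes.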

How the data were processed

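Poly(A)+ RNA of ING WAT from 4 PN21 and 4 PN98 mice was sequenced paired end from directional libraries, and groups were taken from the age in the labels. The authors mapped the reads with STAR (2.3.0) to mm10 (GRCm38), and quantified them with Cufflinks (2.1.1) against Gencode; the deposited unit is FPKM, per Ensembl transcript and mouse. CASAVA (1.8.2) and FastQC are also named in the submitters' processing notes, and the strand setting of Cufflinks is not given in the sources used here. The deposited table lost the decimal mark of at least 1 value in 40380 of 91969 transcripts. Marks were restored with the help of 3 columns deposited by the authors, a standard deviation, an average and a score, which run over 10 values per transcript, those of the 8 mice and 2 that are unknown here; a reading was accepted where 2 values of at least 0 gave back the deposited average and standard deviation. A single reading was found for 40307 transcripts, 29 were taken from the authors' second table and 44, none of them of a member, were left out. Of the single readings 5000 also stand in that second table, and all were equal within 1 percent. That table holds the fold changes and p-values of the authors' own comparison, which were not used.

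FPKM were summed per gene, by the single gene named or, for 37758 transcripts with several names, by GENCODE vM21; 1827 transcripts were left out. Members, lists and pairs were chosen with earlier results of these data known. Genes with a mean of at least 1 FPKM were fitted with limma (3.58.1, R 4.3.3; lmFit and eBayes) on log2(FPKM + 1), adjusted by Benjamini-Hochberg over all genes with a threshold of 0.05. The fit was tested on simulated data for 15792 genes at 4 against 4 mice, where it called 42 of 100 genes changed by 1 on the log2 scale, 82 of 100 changed by 2 and 8 of 15592 unchanged genes. Ratios, with no pseudocount, were tested by going through all 70 splits with numpy (2.4.6), and Spearman's rho was computed with scipy (1.17.1). Alternatives were other scalings, a pseudocount of 0.1, no filter, a variance trend, sample weights, each mouse left out in turn, and for ratios a pseudocount of 1 and single leading transcripts. Values in every mouse are given for members past the threshold, for the member with the largest difference in each role and for pairs whose ratios did not overlap; of the other lists, genes past the threshold and the 3 with the largest differences are named. The CCAAT box was added to the motifs after the sequences were seen. Promoters are from RefSeq (GRCm38.p6). The files hold no read counts, so depth and counting error are unknown, and only the spread between 4 mice sets the precision.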

Additional observations from a re-analysis of the deposited data

Results flagged for a closer look

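Of 100 groups of 4 values checked for a mouse far from the other 3 of its age, 2 were set off by more than the critical share of the range, where chance gives about 1 in 20. *Timm17a* was at 53.7 FPKM in PN98 mouse m35, while the other PN98 mice lay between 73.2 and 76.4 FPKM, a gap of 0.857 of the range. The log2 ratio of *Grpel2* to *Grpel1* was -1.80 in PN21 mouse m138 and -2.74 to -2.65 in the other PN21 mice, a gap of 0.912 of the range.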

How the results depend on the processing

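No paired analysis was possible because the labels give no pairing, and the replicate numbers are in accession order. The 2 members past the threshold became 0 with either other scaling (limma, with 4 and 2 at an unadjusted p under 0.05, beside 22.6% and 25.7% of all genes), 1 with a pseudocount of 0.1 (*Timm8a1*), 1 without m35 and m145 (chosen after seeing the data), 11 with sample weights and 0 to 4 without 1 mouse. The count over all genes (878) was 4674 with sample weights, 2588 without m35 and m145, and 207 (without m106) to 3615 (without m35) without 1 mouse. The further pathway genes and regulators past the threshold (3) were 1 with either scaling, 13 with sample weights and 0 to 8 without 1 mouse. Member transcripts past the threshold (0) were 4 of 88 with sample weights and 0 to 1 without 1 mouse. The share of all transcripts in the weighted fit is not given here, and at gene level the same weights called 29.6% of all genes. The 4 are therefore no result about the members. The number of pairs past the threshold was 0, from 0 to 0 without 1 mouse. That count says nothing of stability, because with so few splits a few separated pairs could not pass. With leading transcripts the difference of *Tomm40l* to *Tomm40* (0.58) was 0.17. The median of the members ran from -0.43 (without m138) to -0.24 (without m35).

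Log2 fold changes that changed sign were small. With libraries scaled to nuclear genes and by the median of ratios, in turn, they became 0.075 and 0.047 for *Timm17a*, 0.19 and 0.17 for *Timm23*, 0.081 and 0.052 for *Tomm7*, 0.037 and 0.0097 for *Tomm34*, 0.033 and 0.0080 for *Chchd4*, 0.034 and 0.0055 for *Hspa9*, 0.077 and 0.048 for *Dnajc19*, 0.082 and 0.054 for *Clpp*, 0.14 and 0.11 for *Clpx*, 0.072 and 0.043 for *Pmpcb*, 0.23 and 0.20 for *Pmpca*, and 0.052 and 0.023 for *Timm8b*. *Pam16* became 0.0023 with the former only. With sample weights *Gfer* became -0.049, *Clpx* 0.067, *Pmpcb* 0.12 and *Pmpca* 0.073. Without m35 and m145 *Timm23* became 0.16, *Tomm7* 0.071, *Pam16* 0.065, *Dnajc19* 0.051, *Clpp* 0.15, *Pmpcb* 0.073 and *Timm8b* 0.12, and the log2 ratios of *Grpel2* to *Grpel1* -0.33, *Hspd1* to *Hspe1* -0.050, *Pmpca* to *Pmpcb* -0.10 and *Clpx* to *Clpp* -0.25. Without 1 mouse the range crossed 0 for *Clpp* (-0.35 to 0.00028), *Clpx* (-0.27 to 0.0081), *Dnajc19* (-0.32 to 0.0021), *Gfer* (-0.15 to 0.19), *Hspa9* (-0.41 to 0.042), *Pmpca* (-0.14 to 0.088), *Timm23* (-0.20 to 0.15) and *Tomm7* (-0.31 to 0.033), and for the log2 ratios of *Clpx* to *Clpp* (-0.20 to 0.21), *Grpel2* to *Grpel1* (-0.27 to 0.24), *Hspd1* to *Hspe1* (-0.13 to 0.19) and *Pmpca* to *Pmpcb* (-0.10 to 0.31). The cause was not tested. With 4 mice at each age and no read counts, differences of this size were not detectable here.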
